A study of Homo sapiens and Mus musculus with 12 samples.

Results

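The regions described here are the peaks of 2 transcription factors, SPDEF and GATA6, on the long arm of human chromosome 14 (14q) in a pancreatic ductal adenocarcinoma (PDA) cell line. A peak is a stretch of the genome where sequenced fragments pile up. Members were taken by position from 2 deposited peak lists on the hg19 build, as every peak on chromosome 14 that lies more than 1 Mb from the centromere band. Chromosome 14 itself was chosen from the measured peak lists, because it held more peaks than its length gives, so its peak density is a description here and is not tested. The rule gave 239 SPDEF peaks of 2775 in that list and 617 GATA6 peaks of 10670, which is 856 regions of 13445 in all. They make up 8.61% of the SPDEF list and 5.78% of the GATA6 list. The short arm held 0 peaks of either list.

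Both lists come from HPAF-II, an established human PDA line, in cells that carry HA-tagged human SPDEF. Peaks were mapped with CUT&RUN, in which an antibody tethers a nuclease to its target on chromatin and the fragments it releases are sequenced. The 3 libraries behind the SPDEF list used an antibody against the HA tag, so they show the tagged protein, and the 3 behind the GATA6 list used an antibody against GATA6 in the same tagged cells. The same cells gave 1 IgG control and 1 H3K4me3 library, which were not analysed here. The sources used here do not say how the tagged gene was introduced or whether the tagged line is 1 clone. Each list is 1 measurement: it gives the start and end of each peak and no height, score or replicate value. No difference below could therefore be set against a spread between cultures, and the sequencing depth behind the lists is unknown. Intervals are 95% Wilson intervals for shares and exact 95% Poisson intervals for counts, and they cover counting error only. Peaks that lie close together are not independent, so the true uncertainty is wider. Where intervals are said to overlap, this is a description and not a test of a difference.

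SPDEF is an ETS-family factor that drives the maturation of goblet and other mucus-secreting epithelial cells. GATA6 is a zinc-finger factor of the endoderm that keeps pancreatic and gastric epithelia differentiated, and its expression marks the classical subtype of PDA. Transcription factors of one cell type often occupy the same enhancers, and enhancers of a gene active in that cell type tend to lie in groups, which is why the overlap and the crowding of the 2 sets of peaks are described in turn.

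Peaks were dense along 14q in both lists. GATA6 had 7.07 peaks per Mb of 14q (95% interval 6.52 to 7.65), against 3.59 per Mb on the other chromosomes from 1 to 22 and X measured the same way, a ratio of 1.97. For SPDEF there were 2.74 peaks per Mb (2.4 to 3.11) against 0.866, a ratio of 3.16. Among 23 chromosomes 14 ranked second in both lists, after chromosome 12 for GATA6 (7.33 per Mb) and after chromosome 20 for SPDEF (2.90 per Mb). Per protein-coding gene it ranked first in both, with 102 GATA6 and 39.5 SPDEF peaks per 100 genes, against medians of 44.1 and 8.68 over the other chromosomes.

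The excess was spread along the arm and did not rest on a single place. Over 86 whole windows of 1 Mb, the median window of 14q held 5.5 GATA6 and 2 SPDEF peaks, whereas the median window of the other chromosomes held 2 and 0. Windows without a peak made up 15.1% of 14q for GATA6 and 34.9% for SPDEF, against 26.3% and 62.2% elsewhere. Chromosomes 12 and 20, the other chromosomes of high density, had like values, with medians of 6 and 5 GATA6 peaks and 1 and 2 SPDEF peaks per window. The lists do not give the copy number of any chromosome in HPAF-II, and its part in the density was not tested.

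A window was counted as dense when it held at least 4 times the mean of all 2863 windows of the genome, that is at least 15 GATA6 or at least 4 SPDEF peaks. Of the 86 windows of 14q, 12 were dense in GATA6 peaks (background over all windows 3.18%), 25 in SPDEF peaks (background 7.06%) and 9 in both (background 1.61%). Since these counts use the same measurement that chose chromosome 14, nothing further is read from them. At 3 times the mean the counts were 21 (background 7.47%), 35 (11.8%) and 18 (4.12%), and at 6 times they were 5 (0.629%), 12 (2.86%) and 4 (0.454%). The limit is tight for SPDEF, where 9 windows held exactly 4 peaks and 10 held 3. For GATA6, 2 windows held 15 peaks and 2 held 14. The dense GATA6 windows formed 10 segments with 234 peaks (37.9% of its members), and the dense SPDEF windows formed 16 segments with 171 peaks (71.5%). The 9 windows dense in both lists are 10.5% of the windows, with 185 GATA6 and 66 SPDEF peaks. Among them, the windows starting at 32000001 and 75000001 reach 4 SPDEF peaks only with a peak of 20 bp and of 17 bp.

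**Figure D1:**
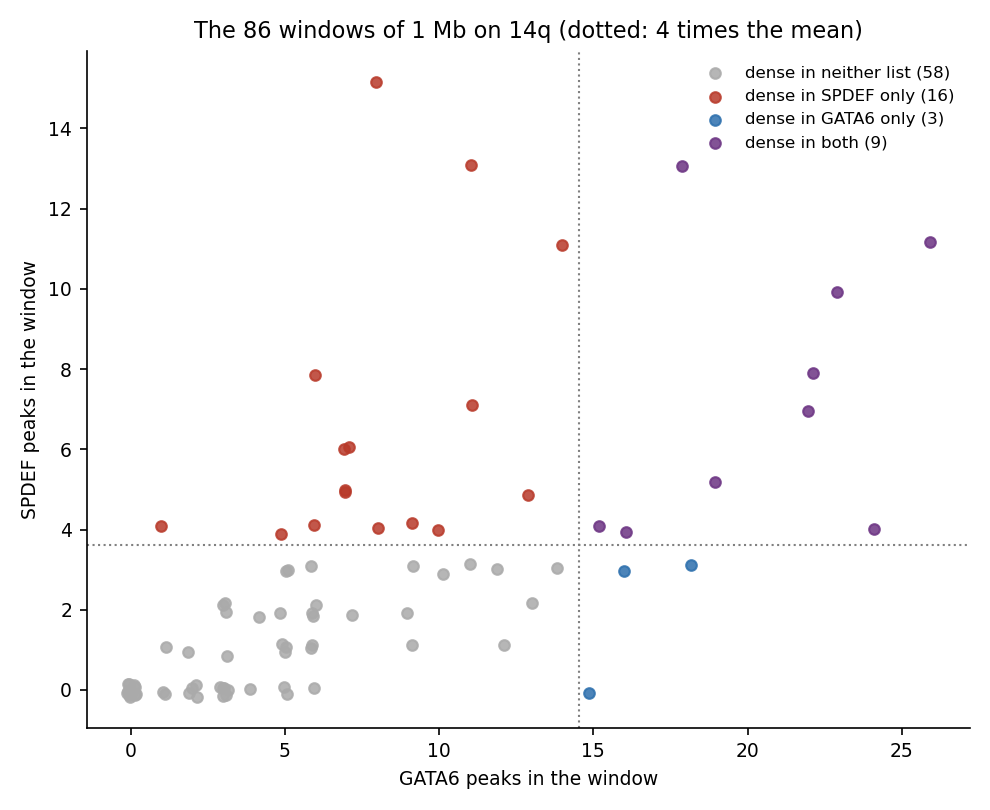
Each point is a 1 Mb window of 14q, placed by its number of GATA6 peaks (horizontal axis) and SPDEF peaks (vertical axis), with a small random shift so that equal points can be told apart; dotted lines mark 4 times the genome mean of each list. The 9 windows dense in both lists reach 26 GATA6 peaks, 16 are dense in SPDEF alone, 3 in GATA6 alone, and the highest SPDEF count, 15, stands over 8 GATA6 peaks.

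The counts of the 2 lists followed each other only in part. Across the 86 windows Pearson's r was 0.647 and Spearman's rho 0.772, as a description, since an overlapping pair of peaks adds to both counts. When only peaks that did not overlap the other list were counted, the values were 0.158 and 0.337. Which peaks are removed here depends on the other list, and only 79 SPDEF peaks remain for the 86 windows. Nothing is therefore read from the lower values.

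Bands of the long arm were compared in the same way. The highest value of both lists was that of 14q22.2 (positions 54100001 to 55500000), with 34 GATA6 peaks, 6.69 times the genome mean (4.63 to 9.35), and 12 SPDEF peaks, 9.49 times the mean (4.90 to 16.6). The next GATA6 bands were 14q13.3 at 4.82 times (21 peaks) and 14q11.2 at 3.31 times (54 peaks). The next SPDEF bands were 14q11.2 at 9.35 times (38 peaks) and 14q24.1 at 6.26 times (13 peaks). In all, 2 of 27 bands reached 4 times the mean for GATA6 (background over all bands 1.52%) and 9 for SPDEF (background 5.72%). Bands 14q21.1, 14q21.2, 14q31.1 and 14q31.2 lay below the mean in both lists, at 0.257 to 0.583 times for SPDEF where any peak was found and 0.424 to 0.641 times for GATA6. Of their intervals, only that of GATA6 in 14q21.1 (0.199 to 0.826) stayed below the mean, and all the others included it. In 14q31.2 SPDEF had 0 peaks, where a count of 0 allows up to 3 as a one-sided 95% limit. Intervals of neighbouring ranks overlapped throughout, also those of the first and second band in each list, and the order of the bands was not tested.

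**Figure D2:**
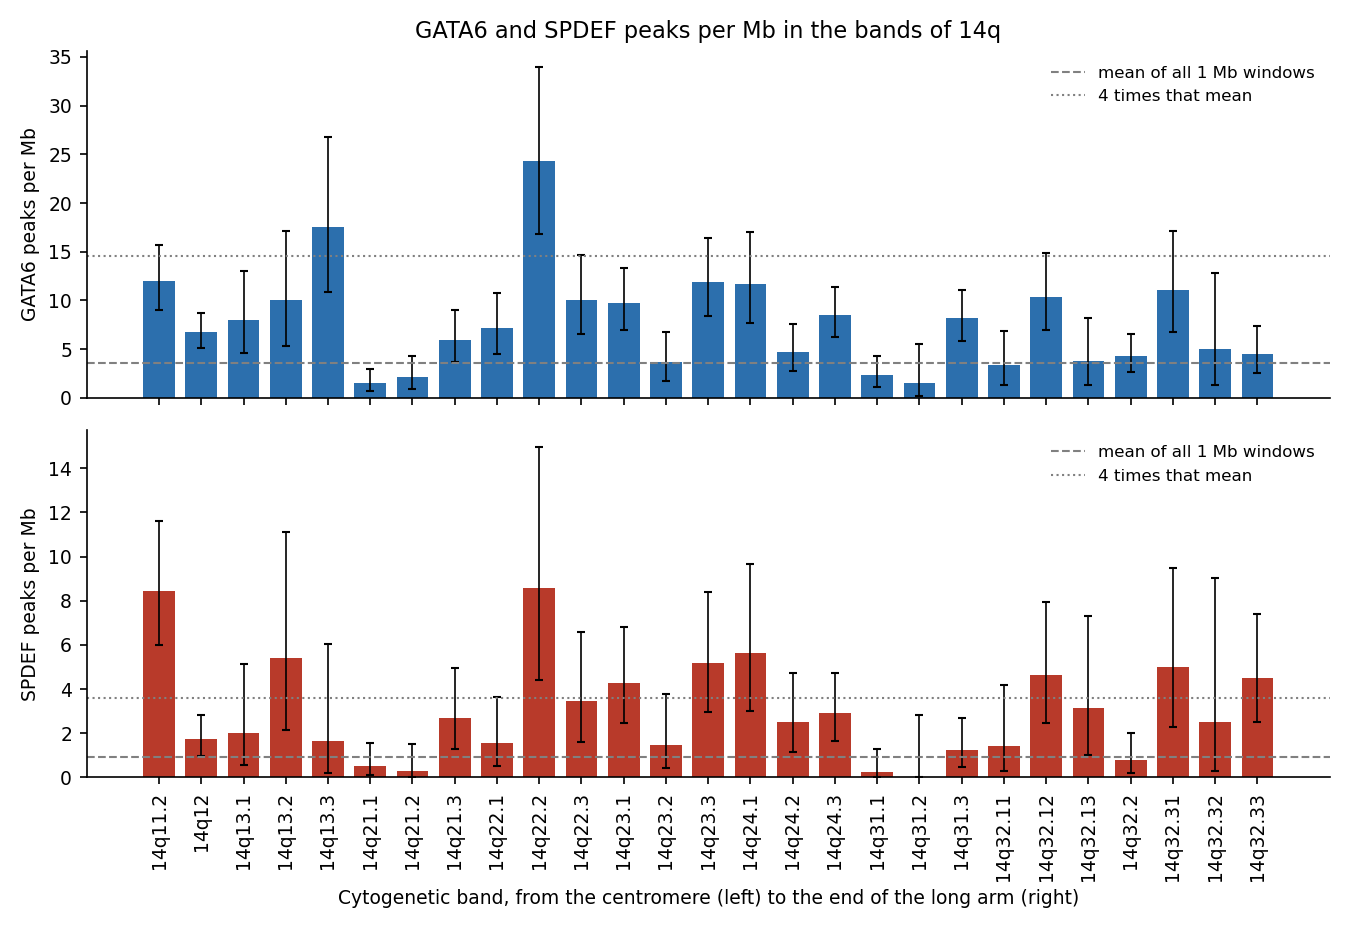
Bars give GATA6 (upper panel) and SPDEF (lower panel) peaks per Mb in each band of 14q from the centromere to the end of the arm, with exact 95% Poisson intervals; the dashed line is the mean of all 1 Mb windows of the genome and the dotted line 4 times that mean. Band 14q22.2 is highest in both panels, 14q13.3 is high for GATA6 alone (21 peaks against 2 of SPDEF) and 14q11.2 is high for SPDEF (38 peaks).

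The segment with the most GATA6 peaks ran over 2 adjacent windows, from position 54000001 to 56000000, in 14q22.1 to 14q22.3, with 48 GATA6 and 18 SPDEF peaks. Of these, 14 SPDEF peaks overlapped a GATA6 peak and 15 GATA6 peaks overlapped an SPDEF peak. The window from 55000001 to 56000000 held the most GATA6 peaks of the arm, 26 beside 11 of SPDEF. Within the segment the paired peaks fell into small groups. At 54317273 to 54318288 a GATA6 peak of 1016 bp enclosed an SPDEF peak of 364 bp, inside a GATA6 cluster of 5 peaks over 14.96 kb. Farther along, GATA6 peaks at 54572218 to 54573187 and at 54582821 to 54583918 each enclosed an SPDEF peak, of 574 and 598 bp. SPDEF peaks at 54719047 to 54719482 and at 54720188 to 54720377 both lay on GATA6 peaks. A further GATA6 cluster of 5 peaks spanned only 5.74 kb, from 55031723 to 55037466, with 2 SPDEF peaks on 3 of its peaks. The widest shared pair of the segment lay at 55593696 to 55594978, a GATA6 peak of 1283 bp around an SPDEF peak of 625 bp. The protein-coding genes of 14q22.2 in the gene table are BMP4, LOC124903317, CDKN3, CNIH1, GMFB, CGRRF1, SAMD4A, GCH1 and WDHD1. BMP4 is a secreted ligand of the bone morphogenetic protein pathway, CDKN3 a cell-cycle phosphatase, and GCH1 the first enzyme of tetrahydrobiopterin synthesis. In the next band, 14q22.3, lie LGALS3, a galactose-binding lectin of epithelia, and OTX2, a homeobox factor of the head and eye. That gene table is on another build (GRCh38.p14), so genes are tied to a band by its name only and no peak is assigned to a gene.

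Band 14q11.2, next to the centromere, held the most SPDEF peaks, and also the most without a near GATA6 peak. Of its 38 SPDEF peaks, 20 overlapped a GATA6 peak, and 16 had no GATA6 peak within 10 kb. On the whole arm 50 of 239 SPDEF peaks had none within 10 kb. By share 14q11.2 was not the highest, since 14q24.2 had 6 such peaks of 9. The window from 21000001 to 22000000 had the most SPDEF peaks of 14q, 15 beside 8 GATA6 peaks (16.6 times the SPDEF mean, 9.29 to 27.4, and 2.2 times the GATA6 mean, 0.951 to 4.34), and 3 of the 15 were shared. Peaks of only 75 bp (21851971 to 21852045) and 7 bp (21979660 to 21979666) are among the 15. The window also included 4 SPDEF peaks within 3.57 kb, at 21149542 to 21149776, 21149985 to 21151311, 21151560 to 21152035 and 21152397 to 21153106. Their widths were 235, 1327, 476 and 710 bp, and the nearest GATA6 peak was 21915 bp from the last of them. This was the only one of the 9 SPDEF clusters on 14q without a GATA6 peak inside it. Whether its 4 peaks are parts of 1 longer region cannot be told from the list. The next segment dense in SPDEF peaks, from 23000001 to 25000000, ran from 14q11.2, which ends at 24600000, into 14q12. It held 24 SPDEF and 32 GATA6 peaks, with 13 of the SPDEF peaks shared. The first window had 13 and 18, and the second, which crosses the band limit, had 11 and 14. Band 14q11.2 is rich in genes, with 110 protein-coding genes in the table and 15 of the 19 tRNA genes of 14q. Among them are ANG and the pancreatic-type ribonucleases RNASE1 to RNASE4 and RNASE6 to RNASE8, secreted enzymes of which several kill microbes, DAD1, a subunit of the oligosaccharyltransferase that N-glycosylates proteins in the endoplasmic reticulum, AJUBA, a LIM protein of cell junctions, and CEBPE, a factor of granulocytes. Per protein-coding gene the band had 0.345 SPDEF peaks, against 1.33 in 14q22.2.

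Band 14q13.3 held 21 GATA6 peaks but 2 SPDEF peaks (1.85 times the mean, 0.223 to 6.67), both of them shared. A GATA6 cluster of 7 peaks, each of 168 to 976 bp, spanned 19.9 kb from 36677586 to 36697476, and the nearest SPDEF peak was 399142 bp from its first peak. The 6 protein-coding genes of the band are MBIP, NKX2-1, NKX2-8, PAX9, SLC25A21 and MIPOL1. NKX2-1 specifies thyroid and lung, and PAX9 pharyngeal pouches and teeth. The neighbouring band 14q13.2 had 7 SPDEF peaks (5.96 times the mean) and 13 of GATA6 (2.75 times). It held the second widest SPDEF peak of the arm, 1355 bp at 35590617 to 35591971, and is the band of NFKBIA, the inhibitor that retains NF-kB in the cytoplasm, and of SRP54, a subunit of the signal recognition particle that brings secreted proteins to the endoplasmic reticulum.

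**Figure D3:**
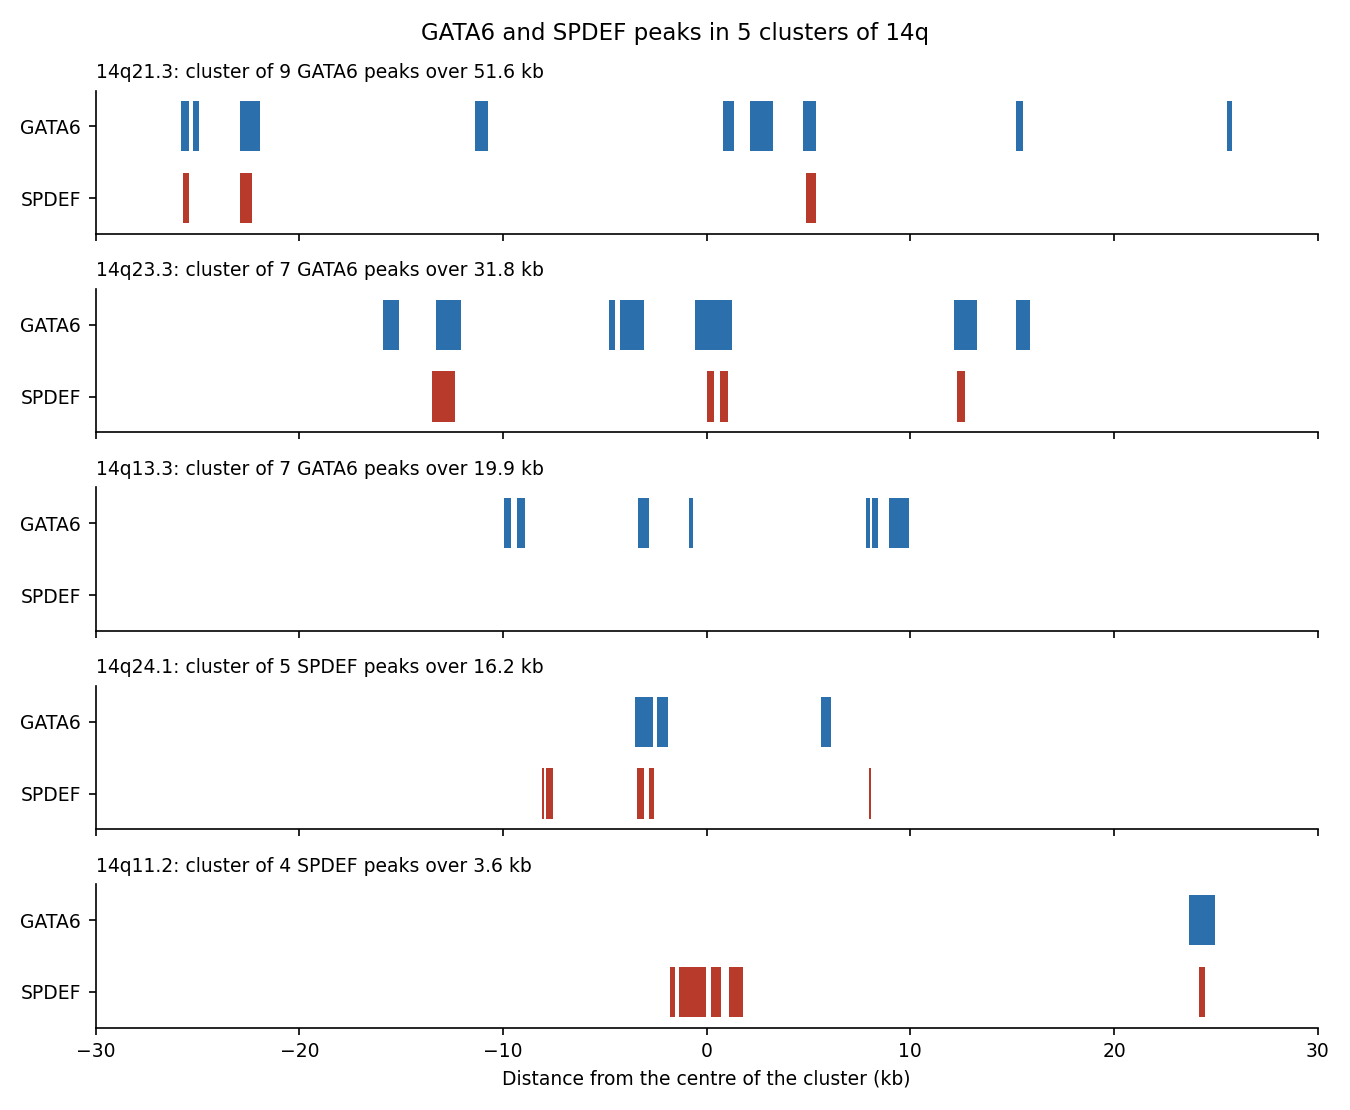
Positions of GATA6 (blue) and SPDEF (red) peaks, drawn to scale, within 30 kb of the centre of 5 clusters on 14q; the horizontal axis is the distance from the centre of the cluster in kb, and peaks that nearly touch can merge in the drawing. GATA6 peaks outnumber SPDEF peaks in 14q21.3 and 14q23.3, no SPDEF peak lies near the 14q13.3 cluster, and the 4 SPDEF peaks of 14q11.2 have their nearest GATA6 peak 21915 bp away.

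Clusters were formed by joining peaks of a list with gaps of at most 12500 bp. GATA6 had 43 clusters of 3 or more peaks on 14q, with 174 peaks (28.2% of its members, against 21.2% on the other chromosomes). SPDEF had 9 clusters with 33 peaks (13.8%, against 8.66%). Peak density is also higher on 14q, and its part in these shares was not tested. Of the 43 GATA6 clusters 32 held at least 1 SPDEF peak and 11 held none. The largest, in 14q21.3 at 50439322 to 50490929, had 9 GATA6 peaks over 51.6 kb, 3 of them with an SPDEF peak. Its window, 50000001 to 51000000, held 23 GATA6 and 10 SPDEF peaks, with 8 of the SPDEF peaks shared. ARF6, a small GTPase of membrane traffic and endocytosis, is in this band. In 14q23.3 lay a cluster of 8 GATA6 peaks at 65155955 to 65193734 and one of 7 at 65693848 to 65725626, with 22 GATA6 and 8 SPDEF peaks in their window. The second cluster was also an SPDEF cluster. All 4 of its SPDEF peaks, of 1143, 360, 356 and 400 bp, overlapped a GATA6 peak, 2 of them the same GATA6 peak of 1842 bp (65709145 to 65710986). MAX, the dimer partner of MYC, is in 14q23.3.

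The SPDEF cluster with the most peaks lay in 14q24.1 at 69246278 to 69262447, where 5 narrow peaks of 110 to 355 bp stood beside 3 GATA6 peaks and 2 of the 5 overlapped one. Band 14q24.1 holds ZFP36L1, an RNA-binding protein that destabilises messenger RNA, ACTN1, the cytoskeletal alpha-actinin, and GALNT16, a member of the enzyme family that starts O-linked glycans. Within the band, from 68000001 to 69000000 there were 19 GATA6 (11.4 to 29.7) and 5 SPDEF peaks. From 69000001 to 70000000 there were 6 (2.2 to 13.1) and 8. The intervals of the windows overlap in both lists, and a difference between them was not tested. Another cluster of 4 SPDEF peaks, in 14q32.33 at 105144210 to 105155464, contained the widest SPDEF peak of the arm (2061 bp, 105146716 to 105148776). That peak covered 2 GATA6 peaks of 829 and 418 bp in part or in full. The window from 105000001 to 106000000 held 13 SPDEF and 11 GATA6 peaks (14.4 and 3.03 times their means), 8 of the SPDEF peaks being shared. AKT1, a growth-signalling kinase, and JAG2, a Notch ligand, are in this band, which has 38 protein-coding genes.

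Further segments dense in GATA6 peaks lay along the arm. In 14q12 the window from 32000001 to 33000000 had 24 GATA6 and 4 SPDEF peaks, 3 of the latter shared. The SPDEF peak that was not shared was only 20 bp wide (32414958 to 32414977). Overlapping pairs were ranked by the sum of the width ranks of both peaks, and of the first 10 pairs 2 lay there, with GATA6 peaks of 1226 bp (32413524 to 32414749) and 1261 bp (32475405 to 32476665). In 14q24.3 the windows from 74000001 to 76000000 held 31 GATA6 and 8 SPDEF peaks, 6 of the latter shared. One of those pairs was an SPDEF peak of 446 bp inside a GATA6 peak of 1510 bp (75743963 to 75745472). The SPDEF peaks also include one of 17 bp (75643125 to 75643141). The genes FOS, JDP2 and BATF, which encode basic leucine zipper factors of the AP-1 group, and TGFB3 and LTBP2, a TGF-beta ligand and a binding protein of its latent form, belong to this band of 69 protein-coding genes. In 14q31.3 the window from 85000001 to 86000000 had 15 GATA6 peaks, of 144 to 1213 bp, and 0 SPDEF peaks, with the same one-sided limit of 3. The nearest SPDEF peak lay 1.9 Mb away. Farther along the same band the window from 88000001 to 89000000 held 13 GATA6 and 5 SPDEF peaks, all 5 shared. There a GATA6 peak of 2318 bp (88456041 to 88458358), the second widest of the arm, carried 2 SPDEF peaks of 399 and 392 bp, and one of 1761 bp (88510085 to 88511845) enclosed an SPDEF peak of 434 bp. All 3 pairs are among the 10 of smallest rank sum. The windows from 59000001 to 60000000 in 14q23.1 and from 101000001 to 102000000 across 14q32.2 and 14q32.31 had 16 and 18 GATA6 peaks and 3 SPDEF peaks each, all 6 shared. In 14q32.31 a GATA6 cluster of 7 peaks over 21.4 kb, from 101446332 to 101467729, carried 1 SPDEF peak. That band holds 45 of the 99 miRNA genes of 14q, among them an imprinted cluster, and HSP90AA1, a cytosolic chaperone.

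Segments dense in SPDEF peaks lay in 14q23.1 to 14q24.1 as well. From 60000001 to 63000000 there were 12 SPDEF and 18 GATA6 peaks, 6 of the SPDEF peaks shared. Each of the 3 windows held exactly 4 SPDEF peaks, the lowest count called dense. The first reached it with peaks of 53 bp (60558774 to 60558826) and 52 bp (60631842 to 60631893). In the last, all 4 SPDEF peaks, of 183 to 353 bp, stood within 2.445 kb at 62027156 to 62029600. Band 14q23.1, at 4.71 times the SPDEF and 2.69 times the GATA6 mean, holds PRKCH, a protein kinase C of epithelia. From 67000001 to 70000000, in 14q23.3 and 14q24.1, there were 17 SPDEF peaks, 12 of them shared, and 35 GATA6 peaks. That segment includes the pair of an SPDEF peak of 839 bp (68638661 to 68639499) and a GATA6 peak of 1202 bp. It also includes the second widest SPDEF peak without a GATA6 peak within 10 kb, of 902 bp at 69864825 to 69865726, whose nearest GATA6 peak was 252480 bp away. The others of the 5 widest such peaks were 2 of the 14q11.2 cluster, one of 871 bp in 14q32.12 (93650946 to 93651816) and one of 719 bp in 14q11.2 (23355944 to 23356662).

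The lists shared sites on 14q about as often as elsewhere when counted from SPDEF. Of 239 SPDEF peaks, 160 overlapped a GATA6 peak by at least 1 bp (66.9%, 60.8 to 72.6), against 65.6% (63.7 to 67.5) on the other chromosomes, and the intervals overlap. Counted from GATA6, 154 of 617 peaks overlapped an SPDEF peak (24.96%, 21.7 to 28.5), against 15.04% (14.3 to 15.8) elsewhere, and 14 ranked second of 23 chromosomes after 20 (27.7%). The intervals of several chromosomes, among them 20, 19 (24.7%) and 12 (23.3%), overlap that of 14. The second share moves with how many SPDEF peaks a chromosome has: 14q had 38.7 SPDEF peaks per 100 GATA6 peaks, behind only chromosomes 20 (45.6) and 19 (40.4), and the median of the other chromosomes was 22.4. Its part in the share was not tested.

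**Figure D4:**
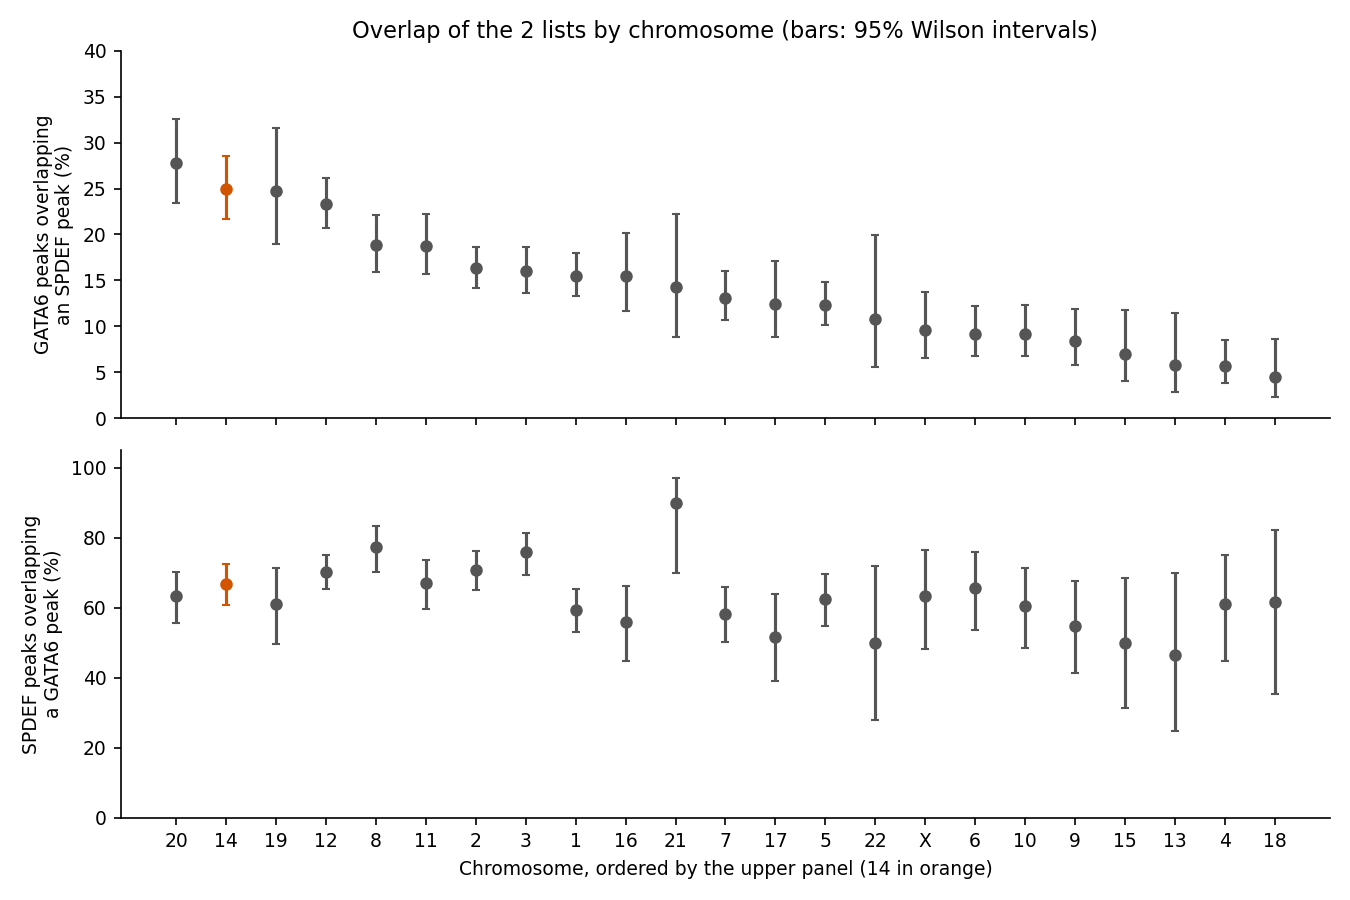
For each chromosome the points give the share of GATA6 peaks that overlap an SPDEF peak (upper panel) and of SPDEF peaks that overlap a GATA6 peak (lower panel), with 95% Wilson intervals and chromosome 14 in orange. Chromosome 14 is second in the upper panel at 24.96% and lies among the other chromosomes in the lower panel at 66.9%.

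On 14q the shares in dense windows were not higher than in the other windows. Inside dense windows 62.6% of SPDEF peaks were shared (107 of 171, 55.1 to 69.5) and in the other windows 75.8% (47 of 62, 63.8 to 84.8). For GATA6 the shares were 23.1% (54 of 234) and 25.5% (94 of 369). All these pairs of intervals overlap. On the other chromosomes the SPDEF shares were 66.5% and 65.3%. The GATA6 shares there were 16.9% in dense windows (250 of 1478, 15.1 to 18.9) and 14.7% in the others (1224 of 8312, 13.98 to 15.5), also with overlapping intervals. At single places the share ranged widely: in 14q32.12 and 14q32.13, from 94000001 to 96000000, all 10 SPDEF peaks were shared, and in 14q24.2, from 71000001 to 72000000, none of 5. As wholes, bands 14q32.12 and 14q32.13 had 10 of 13 and 4 of 5 SPDEF peaks shared. Band 14q32.12 holds the genes of the Golgi proteins TRIP11 and GOLGA5, which were not placed relative to that stretch. Band 14q32.13 holds the serpins SERPINA1, SERPINA3, SERPINA4, SERPINA5 and SERPINA6, which include antiproteases of plasma and mucosal secretions.

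The 160 SPDEF and 154 GATA6 peaks formed 167 pairs with a median distance of 101 bp between midpoints and a median of 244 bp shared. Pairs were chosen for overlapping, which keeps their midpoints close. In 82 pairs (49.1%) the SPDEF peak lay wholly inside the GATA6 peak, in 24 the GATA6 peak lay inside the SPDEF peak, and 0 had both edges within 10 bp of each other. A GATA6 peak carried 2 SPDEF peaks in 13 cases. The pair with the widest members in rank lay in 14q32.12, an SPDEF peak of 875 bp (93510219 to 93511093) inside a GATA6 peak of 1806 bp (93509592 to 93511397). Of the 79 SPDEF peaks without an overlap, 29 had a GATA6 peak within 10 kb, 41 within 10 to 100 kb and 9 farther away. Of the 463 GATA6 peaks without one, 215 were more than 100 kb from any SPDEF peak.

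Peak widths on 14q were those of the lists at large. The median was 346 bp for GATA6 (quartiles 233 and 635), 1 bp below that of the other chromosomes, and 273 bp for SPDEF (201.5 and 434), 10 bp above. Shared peaks were wider in both lists. The median SPDEF width was 305 bp where the peak was shared and 231 bp where it was not. For GATA6 the medians were 499.5 and 317 bp. These differences of 74 and 182.5 bp stand beside 44 and 172 bp on the other chromosomes, and a wide peak overlaps by 1 bp more easily. The widest GATA6 peak of the arm was one of 2397 bp in 14q23.1 (59827625 to 59830021), and it carried an SPDEF peak. Next after the 14q31.3 peak came one of 2241 bp in 14q24.1 (68606895 to 68609135), also shared, one of 1905 bp in 14q21.1 (39686267 to 39688171) with the nearest SPDEF peak 41915 bp away, and one of 1851 bp in 14q31.3 (88489850 to 88491700). At the other end, 15 SPDEF and 22 GATA6 peaks were narrower than 100 bp, the narrowest being 3 and 7 bp.

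Of 79 genes of 14q listed by textbook role, all had a band. The bands at 4 or more times the mean held 30 of the 79 for SPDEF (37.97%) and 5 for GATA6 (6.33%), beside 46.4% and 2.49% of all 603 protein-coding genes of the arm. No reading is drawn from the difference, since genes of a band share its value. By role, SPDEF-dense bands held 7 of 24 transcription factors, 5 of 18 signalling genes, 6 of 16 secretory pathway genes, 8 of 14 secreted proteins and 4 of 7 adhesion and cytoskeleton genes. Those 8 secreted proteins, ANG and the ribonucleases, all lie in 14q11.2 and so share 1 band value. For GATA6 the 5 were NKX2-1, NKX2-8, PAX9, BMP4 and SAMD4A. The band of FOXA1, a pioneer factor of endoderm and its derived epithelia, was among the sparsest. Band 14q21.1 had 9 GATA6 and 3 SPDEF peaks, 0.435 (0.199 to 0.826) and 0.583 (0.12 to 1.7) times the means. No peak of either list lay between 37799092 and 39571587, a stretch of 1.77 Mb from the end of 14q13.3 into 14q21.1, of which FOXA1 is the first protein-coding gene in the table. Peaks were not placed relative to the gene itself. Within 14q21.1 the peaks were uneven. All 3 SPDEF and 5 of the 9 GATA6 peaks lay from 39000001 to 40000000, at 3.32 and 1.38 times the means, and the other 4 GATA6 peaks from 42000001 to 43000000. SEC23A and MIA2, which act in the export of large cargo from the endoplasmic reticulum, are in 14q21.1. SEL1L, which helps remove misfolded proteins from the endoplasmic reticulum, is in 14q31.1 with 1 SPDEF and 10 GATA6 peaks.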

How the data were processed

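The deposited peak lists give the chromosome, start and end of each peak. Bowtie2 2.4.4, SAMtools 1.14, MACS2 2.2.7.1, deepTools and the build hg19 are named in the submitters' processing notes. The way of combining the 3 libraries per target, the control used and the peak threshold are not given in the sources used here. Not analysed here were a mouse list and the libraries for IgG and H3K4me3, and the counts have no control beside them. On chromosome 14, 0 peaks ended past its hg19 length, and 3 GATA6 and 1 SPDEF peaks ended past its hg38 length. The centromere rule left out 3 GATA6 peaks and 1 SPDEF peak, the nearest kept peaks starting at 20748445 and 20869086. Starts are printed counting from 1, and a peak was placed in a window or band by its midpoint. Windows form a fixed grid, and 14 GATA6 and 6 SPDEF members lay outside whole windows. Bands came from circlize 0.4.16 and lengths from GenomeInfoDb 1.38.1 in R 4.3.3. The RefSeq gene table is of GRCh38.p14, so genes were tied to bands by name, and 14 of the 79 listed genes, FOXA1, LGALS3, SERPINA1 and SERPINA6 among them, lie within 200 kb of a band edge, where the band could differ between builds. No hg19 sequence was used here. Counting ran in Python 3.11.15 with scipy 1.17.1 and numpy 2.4.6, drawing with matplotlib 3.10.9. Overlap, window and cluster counting were tested on simulated data. Members, the gene list and the rules were chosen with earlier results of these data known. Named were all windows dense in both lists, the 5 with most peaks in each list, the 3 highest bands, the 5 widest peaks, the first 10 overlapping pairs by rank sum, the 5 widest SPDEF peaks without a GATA6 peak within 10 kb, the 3 largest clusters, and listed genes of the bands with a dense window. Sparse bands, all other windows, clusters and peaks named, and the mapped clusters, were singled out after their values were seen.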

Additional observations from a re-analysis of the deposited data

How the results depend on the processing

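No paired analysis was possible because the lists hold no values per replicate, and for the same reason no library could be left out. Of 39 alternatives run, 25 stayed within the counting interval of the value (or, for counts, within 1.5 times) and 14 moved. The density ratios of 14q stayed between 3.07 and 3.27 for SPDEF and between 1.95 and 2.01 for GATA6. With at least 50% of both peaks shared, the overlap was 32.6% of SPDEF and 12.6% of GATA6 peaks, and with midpoints within 1 kb 72.8% and 28.8%. With the wider 50% of each list 57.7% of SPDEF peaks were shared. Dense windows numbered 21 (GATA6) and 18 (both) at 3 times the mean, and 5, 12 (SPDEF) and 4 at 6 times, by construction. Measured against the mean of chromosome 14 itself, 0 windows were dense in GATA6, 5 in SPDEF and 0 in both, so the dense GATA6 segments stand out against the genome and not, at 4 times, against their own chromosome. Moving the grid by 0.5 Mb gave 13, 27 and 9 dense windows (2.89%, 7.33% and 1.73% of all windows). Joining gaps of up to 25 kb gave 15 SPDEF clusters. The unknown depth limits how far a count of 0 can be read.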

Other observations

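Chromosome bands that stain lightly with Giemsa are richer in genes than dark ones. On 14q the light bands held 3.28 SPDEF peaks per Mb (exact 95% Poisson interval 2.72 to 3.91) and the dark bands 2.33 (1.92 to 2.79), and the values for GATA6 were 7.45 (6.61 to 8.37) and 6.78 (6.07 to 7.55). On the other chromosomes SPDEF had 1.15 per Mb in light and 0.657 in dark bands, and GATA6 4.16 and 3.22. Both kinds of band were denser on 14q than elsewhere. Since chromosome 14 was chosen for its number of peaks, this is a description and nothing further is read from it.

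Long stretches without peaks also lay on the arm. The longest without SPDEF peaks were 6.58 Mb in 14q12 (24911990 to 31495784), 6.26 Mb from 14q31.1 to 14q31.3 (81637005 to 87896933) and 5.87 Mb from 14q21.1 to 14q21.2 (39736246 to 45603482). The longest without a peak of either list was 2.74 Mb, from 78148614 to 80891811 in 14q24.3 and 14q31.1. The median gap between neighbouring peaks was 37.7 kb for GATA6 and 93.0 kb for SPDEF.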
